A study of Mus musculus with 139 samples.

Results

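The 10 genes described here encode the fibrillar collagen chains Col1a1, Col1a2 and Col3a1, the matrix proteins Fn1 (fibronectin), Postn (periostin) and Lum (lumican), the growth factor receptors Pdgfra and Pdgfrb, the surface glycoprotein Thy1 and the intermediate filament protein Vim (vimentin). They were chosen by name, as genes by which fibroblasts are recognised, and all 10 were found among the 52885 genes of each table. The cells were mouse embryonic stem (ES) cells of the line AID-FBEXOSC2 and fibroblasts derived from that line. In every sample EXOSC2, a subunit of the RNA exosome, carries an auxin-inducible degron, so that the auxin IAA (indole-3-acetic acid, 0.5 mM) depletes the protein. The untreated cells carry the degron too, and no cells without it were given IAA, so effects of IAA itself and of losing EXOSC2 cannot be told apart. The fibroblasts, called iMEFs, came from ES cells kept for 10 days in 1 µM retinoic acid without LIF, followed by selection of quickly attaching cells. The labels call them mainly fibroblasts. Total RNA of iMEFs and of ES cells was measured at 0, 4 and 20 h of IAA. Polyadenylated RNA was measured at the same times in ES cells kept in LIF and in ES cells given 2 µM retinoic acid without LIF for 24 h. How the IAA hours lay within those 24 h is not stated in the labels. Further ES cell libraries held subcellular fractions (0 and 4 h), an insoluble nuclear RNA-protein pellet called RNPmesh (0, 4 and 12 h), nascent RNA (0, 1, 2 and 4 h) and sucrose fractions of nuclear lysate (0 and 12 h). Each group had 2 replicates, except the sucrose fractions with 1 library each. Since the labels do not say that replicates were separate cultures, p-values measure only the spread between libraries, which may be technical.

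The RNA exosome is a ring-shaped complex that trims and degrades RNA from its 3′ end in the nucleus and the cytoplasm. Fibrillar collagens are built as triple helices in the endoplasmic reticulum: collagen I joins chains of Col1a1 with a chain of Col1a2, and collagen III is made of Col3a1 chains alone. After secretion they are assembled into fibrils with fibronectin, periostin and lumican. The PDGF receptors alpha and beta bind platelet-derived growth factors and drive growth and migration of mesenchymal cells. Thy1 is a glycolipid-anchored surface protein and vimentin forms the filament network of mesenchymal cells, and neither is exclusive to fibroblasts.

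Values are FPKM as deposited, that is fragments per transcript length and sequencing depth, and the depth of each library is unknown. Changes are log2 differences of group means of FPKM + 1 with the standard error (SE) of a limma model over all tested genes of a table. This scale understates the change of weakly detected genes. A gene is called changed at a Benjamini-Hochberg adjusted p under 0.05. Exosc2 RNA, which checks no label because IAA acts on the protein, was 1.43 ± 0.192 FPKM (mean ± SD, n = 2) in untreated iMEFs and 0.917 ± 0.151 at 20 h. All 6 iMEF libraries were low in genes of pluripotent cells, with summed values of 6.13 to 13.8 over 10 genes against 1869 and 1936 in the untreated ES cell libraries. The 12 other fibroblast markers summed to 989 to 1309 in iMEFs and 41.1 to 62.2 in the ES cell libraries of total RNA. Both sums were chiefly Sparc, with means of 845 FPKM in untreated iMEFs and 47.6 in untreated ES cells. Mfap5 was alike in both, at 3.21 and 3.26. The other listed markers had higher means in iMEFs, though Fap was only 0.145 there and Dpt 1.24. Several markers of other cell types were also present in untreated iMEFs. Of the muscle genes Des was 202 FPKM, Myh11 43.9, Tnnt2 4.73, Tnni1 2.63 and Actc1 1.48. The endothelial gene Kdr was 51.9 and the endoderm genes Gata6, Dab2 and Gata4 were 58.0, 10.0 and 5.49. The epithelial genes Krt18, Krt19 and Krt8 were 39.7, 11.3 and 2.84. Others of these lists were low or absent, with Cdh5 at 0.0351, Pecam1 at 0.0626 and Afp, Ptprc and Myod1 listed at 0.

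The sequences just before the start sites are shown for 3 members that behaved differently, namely Vim, which was detected in every cell state, Col1a2, which was higher with retinoic acid, and Col3a1, the most abundant member in iMEFs. RefSeq promoter sequences (build GRCm38.p6, 250 bases before to 50 after the start, plus strand) were found for 5 of the 10 genes, namely these 3, Postn and Pdgfra. Capitals mark matches to the words TATAAA (of the TATA box), CCAAT and GGGCGG (of the GC box) on either strand. Matches count wherever they lie in the window, and whether any acts as a promoter element was not tested. No match overlaps another here.
Vim, chr2:13574061-13574360: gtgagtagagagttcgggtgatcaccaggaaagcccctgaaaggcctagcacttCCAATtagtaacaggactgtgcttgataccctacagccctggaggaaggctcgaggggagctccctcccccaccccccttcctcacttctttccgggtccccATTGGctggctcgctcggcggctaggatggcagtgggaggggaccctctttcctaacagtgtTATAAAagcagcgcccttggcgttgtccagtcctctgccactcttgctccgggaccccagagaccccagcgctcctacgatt
Col1a2, chr6:4505368-4505667: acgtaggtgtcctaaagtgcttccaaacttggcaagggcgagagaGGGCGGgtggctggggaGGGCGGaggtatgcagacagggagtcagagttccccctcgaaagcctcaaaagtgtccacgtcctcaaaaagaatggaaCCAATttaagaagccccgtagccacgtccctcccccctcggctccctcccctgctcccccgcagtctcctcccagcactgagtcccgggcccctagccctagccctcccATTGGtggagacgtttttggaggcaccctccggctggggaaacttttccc
Col3a1, chr1:45311288-45311587: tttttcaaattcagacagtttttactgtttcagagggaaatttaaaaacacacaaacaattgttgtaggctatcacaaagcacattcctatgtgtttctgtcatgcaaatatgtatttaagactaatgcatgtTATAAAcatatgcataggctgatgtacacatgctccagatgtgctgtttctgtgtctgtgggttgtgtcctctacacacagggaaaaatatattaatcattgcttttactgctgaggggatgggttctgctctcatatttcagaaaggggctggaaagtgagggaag
The Vim window held 1 TATAAA and 2 CCAAT, that of Col1a2 held 2 CCAAT and 2 GGGCGG, and that of Col3a1 held 1 TATAAA. Of 32851 windows of the same length, 13.6% held TATAAA, 37.4% CCAAT and 35.7% GGGCGG. CpG dinucleotides numbered 11 in Vim and 13 in Col1a2, against a median of 7 over all windows, and 0 in Col3a1.

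H3K27ac, a histone mark of active promoters and enhancers, was given as 1 list of peaks at 0 h and 1 at 4 h in ES cells. A peak of 1922 bp covered the Vim window at 0 h (chr2:13572846-13574767) and a peak of 2038 bp covered it at 4 h, while no peak overlapped the windows of Col1a2, Col3a1, Pdgfra or Postn at either time. Peaks lay over 24.1% of all promoter windows at 0 h and 24.4% at 4 h. Within 5 kb of the gene span, 3 members had a peak at 0 h (Vim, Fn1 and Col1a1) and 4 at 4 h, when Lum was added. This compares with 47.3% and 51.1% of 21807 coding genes. Of the 3 Fn1 peaks at 0 h, 1 lay inside the gene (chr1:71585520-71653200), 1 across its right-hand end and 1 just beyond that end (chr1:71653441-71654656). The Col1a1 peak at 0 h (chr11:94957309-94959614) lay beyond the gene (chr11:94936224-94953042), and at 4 h a further peak lay inside it (chr11:94951721-94952474). The lists held 16239 and 20449 peaks, so a peak found at only 1 time was not read as a change.

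In untreated iMEFs Col3a1 was the most abundant member, at 824 and 792 FPKM in the 2 libraries, and ranked 8 of 21807 coding genes. Fn1 followed at 524 and 562 FPKM, Vim at 433 and 445 and Col1a1 at 314 and 301. Col1a2 lay at 116 and 110, Postn at 71.3 and 71.0 and Thy1 at 35.1 and 33.7. The receptors were far lower, Pdgfrb at 9.68 and 9.83 FPKM and Pdgfra at 4.79 and 5.40, and Lum was lowest at 2.05 and 2.13. No neighbours in this order overlapped between libraries. The 10 genes together made up 0.566% to 0.573% of all FPKM in the untreated iMEF libraries.

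In ES cells the order was different. Only Fn1, Vim and Thy1 were detected at 1 FPKM or more in both untreated total RNA libraries, at 63.8 and 60.4 FPKM for Fn1, 26.0 and 23.6 for Vim and 2.47 in both for Thy1. These were 11.7% and 11.1% of the iMEF mean for Fn1, 5.91% and 5.37% for Vim and 7.19% in both for Thy1. The tables were normalized separately, so these levels are set side by side without a test. Pdgfra was 0.0235 and 0.0394 FPKM, Pdgfrb 0.187 and 0.194, and Lum was listed at 0 in both.

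The 3 collagens differed between the ES cell replicates at 0 and 4 h. Col3a1 was 3.18 and 0.325 FPKM at 0 h, 2.28 and 0.612 at 4 h and 0.872 and 0.825 at 20 h. Col1a1 was 1.33 and 0.166 at 0 h and 1.09 and 0.269 at 4 h, and Col1a2 was 0.291 and 0.0477 at 0 h. Replicate 1 was thus above replicate 2 at 0 and 4 h for these genes, and its level was 0.394% of the untreated iMEF mean for Col3a1, 0.433% for Col1a1 and 0.257% for Col1a2. Over the 10 coding genes with at least 100 FPKM in iMEFs but under 0.1 in whole-cell lysate and under 0.5 in LIF polyadenylated RNA of untreated ES cells (Acta2, Actg2, Cav1, Col1a1, Col1a2, Col3a1, Col6a1, Lox, Prss23 and Tnc, a set formed after values were seen), all 10 were higher in replicate 1 at both times. Their median was 0.372% of the iMEF level in replicate 1 and 0.0481% in replicate 2 at 0 h. What this share comes from was not tested. In the separate whole-cell lysate libraries Col3a1, Col1a2 and Postn were listed at 0 at both times.

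At 20 h of IAA, iMEFs held less RNA of Pdgfra, Pdgfrb, Col1a2, Postn and Thy1. These 5 of 10 members were called lower, with 0 higher, where 22.2% of the 12988 tested genes were called lower and the median change of all genes was -0.19. Over all genes 677 were called higher and 2880 lower, or 1727 and 1747 after libraries were rescaled to a common median. The member median was -0.39. Fewer cells of a type and less RNA per cell cannot be told apart in these bulk samples.

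**Figure D1:**
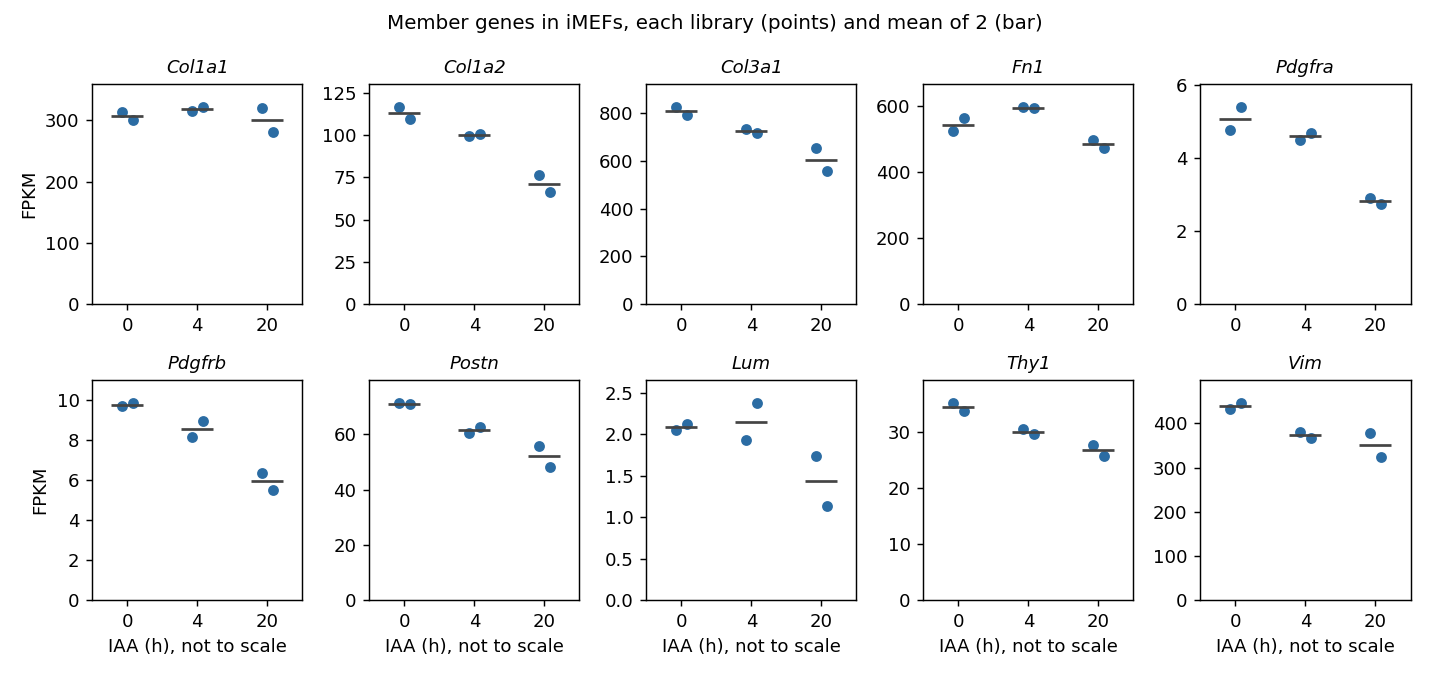
FPKM of the 10 genes in iMEFs at 0, 4 and 20 h of IAA, with each library as a point and the mean of 2 as a bar. Pdgfra goes from 4.79 and 5.40 to 2.92 and 2.74 and Col1a2 from 116 and 110 to 76.5 and 66.2, while the 20 h values of Col1a1 lie on both sides of the untreated ones.

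Among the receptors, Pdgfra fell from 4.79 and 5.40 FPKM at 0 h, over 4.50 and 4.71 at 4 h, to 2.92 and 2.74 at 20 h. Its log2 change at 20 h was -0.67 ± 0.098 (SE; limma, adjusted p = 0.00561), and the mean FPKM fell by 44.5%. Pdgfrb went from 9.68 and 9.83 over 8.13 and 8.94 to 6.36 and 5.50 FPKM, a change of -0.64 ± 0.101 (limma, adjusted p = 0.00735). For both receptors the 20 h libraries lay below all 4 earlier ones. These 2 genes were also lower than at 4 h (-0.55 ± 0.098 and -0.46 ± 0.101, limma adjusted p = 0.024 and 0.0441). The ratio of Pdgfrb to Pdgfra in a library was 1.92 ± 0.14 at 0 h and 2.1 ± 0.12 at 20 h, a difference within the spread (exact permutation test, two-sided p = 0.667).

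The collagen chains did not move alike. Col1a2 fell from 116 and 110 FPKM over 99.5 and 100 to 76.5 and 66.2, a log2 change of -0.66 ± 0.11 (limma, adjusted p = 0.00866), and was also lower at 20 h than at 4 h (-0.48 ± 0.11, adjusted p = 0.0487). Col1a1, which encodes the partner chain of the same trimer, was 314 and 301 FPKM at 0 h, 316 and 321 at 4 h and 320 and 281 at 20 h, a change of -0.03 with a 95% interval of -0.32 to 0.25 (limma, adjusted p = 0.854). Col3a1 had 824 and 792, then 732 and 716, then 653 and 557 FPKM, a change of -0.42 ± 0.138 that did not pass the test (limma, adjusted p = 0.0637).

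Because a ratio within a library does not depend on how libraries are scaled, the chains were also compared with each other; this measure was chosen after the values were seen. The ratio of Col1a1 to Col1a2 was 2.7 and 2.74 at 0 h, 3.17 and 3.2 at 4 h and 4.19 and 4.25 at 20 h. The 3 times did not overlap, and the SD within a time was 0.018 to 0.046. The ratio of Col3a1 to Col1a1 was 2.62 and 2.63 at 0 h, 2.32 and 2.23 at 4 h and 2.04 and 1.98 at 20 h. With 2 libraries against 2 the exact permutation test cannot go below a two-sided p of 0.333, which both ratios gave at 20 h against 0 h.

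**Figure D2:**
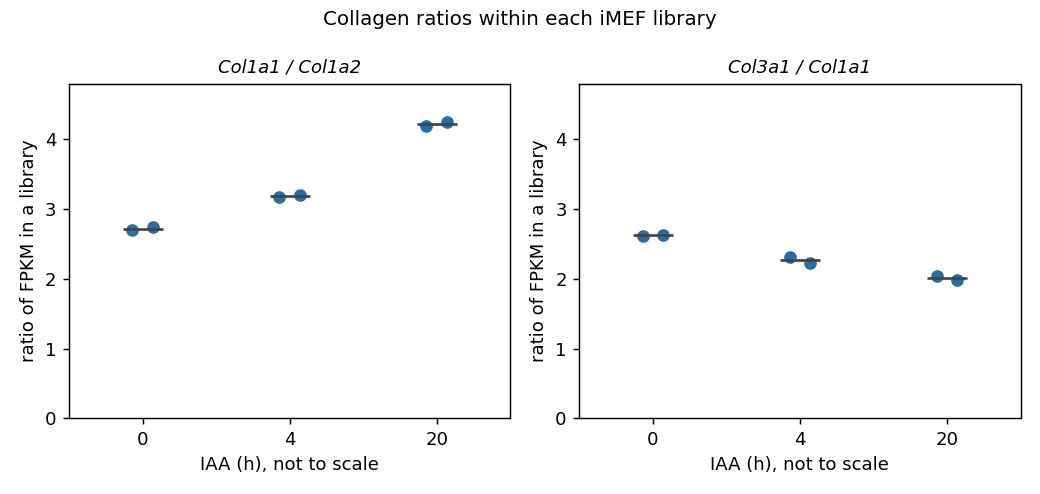
Ratio of FPKM of 2 collagen genes within each iMEF library (points) and mean of 2 (bar) at 0, 4 and 20 h of IAA. Col1a1 over Col1a2 goes from 2.72 to 4.22 and Col3a1 over Col1a1 from 2.63 to 2.01, with library values close together at each time.

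Of the other matrix and surface genes, Postn went from 71.3 and 71.0 FPKM over 60.4 and 62.6 to 56.0 and 48.3 (-0.45 ± 0.106, limma adjusted p = 0.0257). Thy1 went from 35.1 and 33.7 over 30.5 and 29.6 to 27.6 and 25.7 (-0.36 ± 0.09, adjusted p = 0.031). The Thy1 call ended after that rescaling (-0.13, adjusted p = 0.171), and the other 4 calls held. Vim, at 377 and 323 FPKM at 20 h against 433 and 445, did not pass the test (-0.33 ± 0.127, adjusted p = 0.0988). Neither did Fn1, at 498 and 474 against 524 and 562 (-0.16 ± 0.121, adjusted p = 0.35), nor Lum, at 1.74 and 1.13 against 2.05 and 2.13 (-0.35 ± 0.156, adjusted p = 0.134). Rescaling turned the sign of Fn1 (0.08) and of Col1a1 (0.20), neither of which was called.

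The number of called members rested on single libraries. Without either untreated library 2 members were called, Pdgfra and Pdgfrb. Without either 4 h library 3 were called, Col1a2 in addition. Without replicate 1 of 20 h 8 were called, and without replicate 2 of 20 h 4 were. The call of both PDGF receptors held in all 6 of these fits.

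At 4 h of IAA 0 members were called in iMEFs, where 1.63% of genes were called and 3428 of 12988 genes had an unadjusted limma p under 0.05. The smallest adjusted p was that of Thy1, 0.222, with a change of -0.19. Between 4 and 20 h the 3 members named above (Pdgfra, Pdgfrb and Col1a2) were called lower, where 5.72% of genes were; 0 were called when no filter on low values was applied.

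Other matrix genes were followed in lists written with earlier results of these data known, and each count is to be read against the 22.2% of all genes called lower and 5.21% called higher at 20 h. In iMEFs at 20 h, 7 of 15 tested collagen genes outside the members were called lower and 1 higher. Col6a3, a chain of the microfibrillar collagen VI, fell from 28.8 ± 0.695 to 13.6 ± 1.53 FPKM (-1.03) and Col15a1 from 8.32 ± 0.328 to 5.00 ± 0.282 (-0.64). Col27a1 rose from 2.80 ± 0.0548 to 5.47 ± 0.221 (0.77). Of the enzymes that modify, fold and crosslink collagen, 11 of 23 were called lower and 0 higher. Among them were Fkbp14, a peptidyl-prolyl isomerase of the endoplasmic reticulum (12.4 ± 0.0478 to 6.24 ± 0.183 FPKM, -0.88), P4hb, a subunit of prolyl 4-hydroxylase (216 ± 0.672 to 121 ± 15.6, -0.84), and Plod1, a lysyl hydroxylase (14.1 ± 0.0575 to 9.52 ± 0.644, -0.52). The medians of the 2 lists were -0.32 and -0.39.

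Of the matrix glycoproteins and proteoglycans, 13 of 26 were called lower and 0 higher at 20 h (after rescaling 7 and 2). Tgfbi fell from 29.9 ± 1.74 to 13.7 ± 1.53 FPKM (-1.07), the small proteoglycan Bgn from 27.8 ± 0.39 to 17.8 ± 0.648 (-0.61) and Fmod from 8.01 ± 0.56 to 4.12 ± 0.0681 (-0.81). Of 16 matrix receptors 3 were called lower, the integrin chains Itgb3 (-0.51) and Itga1 (-0.39) and the collagen receptor Ddr2 (-0.44). This share is close to that of all genes, and after rescaling 0 were called lower and 3 higher. Of 11 tested proteases and inhibitors, Adam12 was lower (15.3 ± 0.558 to 8.0 ± 0.0996 FPKM, -0.85) and Mmp15 higher (0.518 ± 0.143 to 1.47 ± 0.00834, 0.70), and Timp1 did not pass the test (-0.37, limma adjusted p = 0.0721). After rescaling 4 of them were called higher and 1 lower. Mmp15 was below the minimum of 1 FPKM at 0 h and entered only through libraries with higher values. Its rise is therefore a description with no test.

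The PDGF ligand gene Pdgfa went the other way from Pdgfra and Pdgfrb, from 13.3 ± 0.911 to 19.6 ± 2.51 FPKM at 20 h (0.52, limma adjusted p = 0.0191). It was the only gene called higher of 11 tested in the PDGF list. That list also holds the receptor tyrosine kinase genes Kit, Flt1 and Kdr, which do not encode PDGF receptors. Of 3 called lower in the list, Kdr changed by -0.49 and the kinase subunit Pik3r1 by -0.36, and after rescaling 1 was called lower. In the TGF-beta list 3 of 16 genes were called higher and 2 lower, or 5 and 2 after rescaling, when the list median was 0.13. The 2 called lower were Ltbp1 and Tgfb3. Ltbp1, which binds latent TGF-beta, fell from 20.7 ± 0.0624 to 11.1 ± 1.14 FPKM (-0.85) and Tgfb3 from 55.1 ± 0.769 to 32.1 ± 1.71 (-0.77). Of 10 tested mesenchymal transcription factors Runx1 (-0.51) and Twist2 (-1.05) were called lower, and Prrx1 was not called (-0.27, limma adjusted p = 0.0613). That share too is close to that of all genes.

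Among relatives of vimentin, the intermediate filament and lamin list, 6 of 11 genes were called lower and 1 higher in iMEFs. The nuclear lamins Lmnb1 and Lmnb2 went from 24.0 ± 2.29 to 10.1 ± 0.602 and from 8.29 ± 0.837 to 3.64 ± 0.346 FPKM (-1.17 and -1.0), and Prph from 2.18 ± 0.28 to 0.566 ± 0.000335 (-1.02). Prph was below the minimum of 1 FPKM at 20 h and entered only through libraries with higher values. Its fall is therefore a description with no test and adds nothing to the count of 6.

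Marker genes of other cell types differed in both directions between 0 and 20 h in iMEFs. The muscle list (8 genes, 4 or 5 of at least 1 FPKM in a library, Myod1 and Myl2 listed at 0) summed to 249.8 and 260.1 FPKM at 0 h and 203 and 228 at 20 h. The endothelial list (8 genes, 2 of at least 1, nearly all of it Kdr) summed to 54.7 and 58.0 and then to 36.2 and 41.5. The epithelial list (10 genes, 3 or 4 of at least 1, chiefly Krt18) summed to 53.4 and 61.0 and then to 37.2 and 41.2, and the endoderm list (10 genes, 3 of at least 1) to 71.2 and 77.7 and then to 55.2 and 61.8. Called lower were 3 of 5 tested muscle genes, 2 of 2 endothelial, 1 of 4 epithelial, 2 of 3 endoderm and 1 of 2 neural genes. The tested muscle gene Actc1 had a mean of 0.412 FPKM at 20 h and entered only through earlier libraries. A lower value was fixed for it by that choice, so the muscle count is a description with no test. The neural list (9 genes) summed to 9.97 and 10.4 FPKM and then to 6.16 and 7.35. The sum of the pluripotent list (10 genes) rose from 6.13 and 6.35 to 9.80 and 9.84. This sum was chiefly its only tested gene, Klf4, which was called higher (5.07 to 9.16). The others had means under 1 FPKM. Of these, Pou5f1, Nanog, Sox2, Zfp42, Dppa5a and Dppa4 were lower at 20 h, Esrrb and Tdgf1 were higher, and Utf1 was listed at 0. The sum of the blood list (8 genes) rose from 1.46 and 2.03 to 2.56 and 3.34, with Cd68 called higher (1.16 to 2.01). Of the 11 tested fibroblast markers outside the members 4 were called lower. Dpt, at a mean of 0.653 FPKM at 20 h, did not pass the minimum through its 20 h libraries alone. That count is therefore a description with no test. All these marker counts are to be read beside the 22.2% of all genes called lower and 5.21% called higher. The part of the marker genes in the members' changes was not tested.

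In ES cells at 20 h of IAA, Fn1 and Thy1 were lower and Vim was higher. Of 5 tested members 2 were called lower, where 67.8% of 12461 genes were, and 1 was called higher, where 9.47% were. Fn1 was 63.8 and 60.4 FPKM at 0 h, 45.8 and 55.4 at 4 h and 16.3 and 15.9 at 20 h, a change of -1.88 ± 0.131 (limma, adjusted p = 9.61e-05). Thy1 was 2.47 in both libraries at 0 h, 1.83 and 2.37 at 4 h and 0.334 and 0.282 at 20 h, a change of -1.41 ± 0.144. Thy1 passed the minimum only through its 0 and 4 h libraries, so a lower value at 20 h was fixed by that choice. Its change is a description with no test, and its call adds nothing to the count. For both genes the 20 h libraries stood below all others.

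Vim was 26.0 and 23.6 FPKM at 0 h, 20.7 and 21.9 at 4 h and 38.9 and 36.2 at 20 h. It was called higher at 20 h (0.58 ± 0.116, limma adjusted p = 0.00354). Over all tested genes the median change was -0.76, with 1180 called higher and 8451 lower, or 3450 and 3439 after rescaling. On the rescaled values Vim changed by 1.52. Fn1 and Thy1 still fell on that scale, by 0.95 and 0.98. Col3a1 and Col1a1, which passed the minimum only through replicate 1, did not pass the test (adjusted p = 0.583 and 0.698). At 4 h 0 of 5 members were called, where 25.6% of genes were and 5980 had an unadjusted limma p under 0.05. Without replicate 2 of 4 h 1 member was called.

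**Figure D3:**
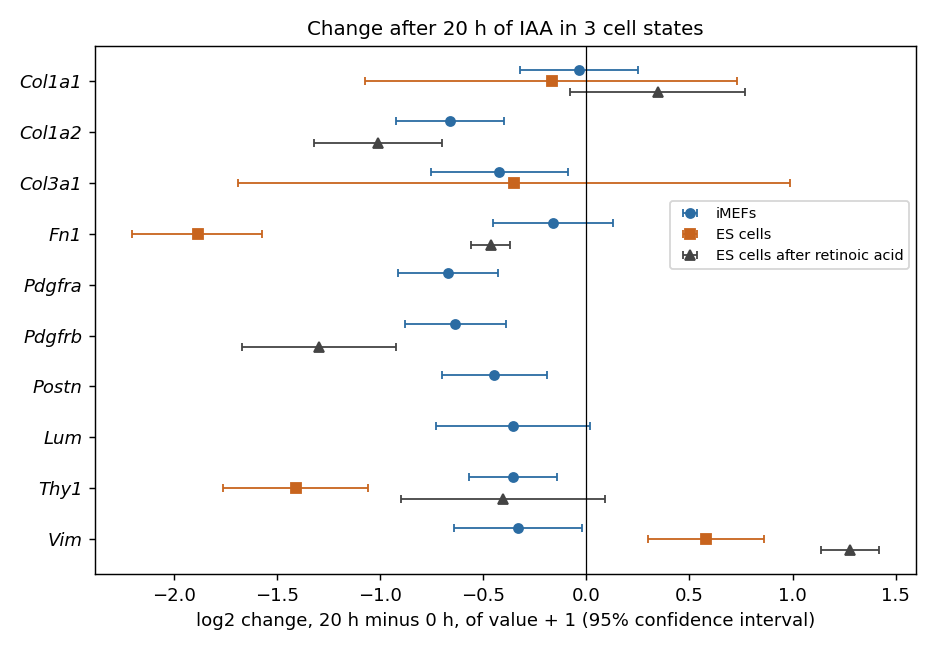
Log2 change of FPKM + 1 at 20 h of IAA with 95% confidence intervals for iMEFs, ES cells and ES cells given retinoic acid, for members that passed the minimum in each table. Vim lies at -0.33 in iMEFs, 0.58 in ES cells and 1.28 after retinoic acid, and the Col1a1 intervals include 0. Pdgfrb and Col1a2 entered the retinoic acid table only through its untreated libraries, so their points below 0 there were fixed by that choice. Thy1 passed the minimum in ES cells only at 0 and 4 h, so its ES cell point below 0 was fixed likewise.

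Without IAA, 24 h of retinoic acid and no LIF went with more Pdgfrb, Col1a1, Col1a2 and Fn1 RNA and less Vim and Thy1 RNA, and the parts of retinoic acid and of LIF cannot be told apart. All 6 tested members were called, 4 higher where 27.7% of 15408 genes were and 2 lower where 19.0% were. Pdgfrb was 0.183 and 0.175 FPKM in LIF and 3.36 and 3.40 after 24 h of retinoic acid (1.89 ± 0.166, limma adjusted p = 3.37e-05). Col1a2 was 0.067 and listed at 0 in LIF and 1.10 and 1.01 after retinoic acid (0.99 ± 0.136, adjusted p = 0.00041). Col1a1 went from 0.0604 and 0.0278 to 1.18 and 0.944 (0.98 ± 0.186, adjusted p = 0.00262). These 3 genes passed the minimum only through libraries with retinoic acid, so the count of called members supports nothing. Pdgfrb and Col1a2 passed it only in the untreated ones and so had to differ. Col1a1 also passed it through the libraries with 20 h of IAA. With no filter all 3 genes were called as well.

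Of the genes that were abundant in both states, Fn1 went from 104 and 106 to 120 and 123 FPKM (0.21 ± 0.041, limma adjusted p = 0.00323). Vim fell from 67.6 and 65.1 to 43.7 and 38.4 (-0.68 ± 0.062, adjusted p = 4.09e-05). Thy1, which was weakly detected with retinoic acid, went from 4.09 and 3.17 to 0.744 and 0.72 (-1.41 ± 0.216). It reached the minimum only in LIF libraries, so a lower value with retinoic acid was fixed by that choice. The Thy1 change is a description with no test. Col3a1 stayed at or below 0.0341 FPKM in all 12 libraries of the table, and Postn and Lum were listed at 0 in all of them. Pdgfra was 0.463 and 0.795 FPKM with retinoic acid and at most 0.133 in LIF, below the minimum for testing.

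With IAA, Pdgfrb and Col1a2 had lower values in the cells given retinoic acid, and Col1a1 did not pass the test at 20 h. Pdgfrb and Col1a2 reached the minimum for testing only in the untreated libraries with retinoic acid, so a lower value with IAA was fixed by that choice. Their changes are given as a description with no test. Pdgfrb in cells with retinoic acid was 3.36 and 3.40 FPKM at 0 h, 0.856 and 0.379 at 4 h and 0.75 and 0.822 at 20 h (-1.30 ± 0.166 at 20 h). Col1a2 was 1.10 and 1.01, then 0.226 and 0.118, then 0.0267 and 0.0205 (-1.01 ± 0.136). Col1a1 was 1.18 and 0.944, then 0.368 and 0.40, then 2.14 and 1.19 (0.35 ± 0.186, limma adjusted p = 0.143). The 4 h values of Col1a1 lay below and the 20 h values above both untreated ones. The ratio of Col1a1 to Col1a2 was 1.07 and 0.932 at 0 h, 1.63 and 3.38 at 4 h and 79.9 and 57.7 at 20 h, the last resting on Col1a2 values close to 0.

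Vim had risen by 20 h of IAA in both states, and more with retinoic acid, while in LIF its 4 h values lay below both untreated ones. With retinoic acid it was 43.7 and 38.4 FPKM at 0 h, 74.3 and 73.6 at 4 h and 100.4 and 101 at 20 h (1.28 ± 0.062, limma adjusted p = 5.9e-07). In LIF it was 67.6 and 65.1, then 63.0 and 63.5, then 82.5 and 87.7 (0.35 ± 0.062, adjusted p = 0.00144). At 0 h Vim was lower with retinoic acid than in LIF, and at 4 and 20 h it was higher, with no overlap. In all, 1 of 6 members was called higher and 3 lower with retinoic acid at 20 h, where 23.1% and 33.8% of genes were. Pdgfrb and Col1a2 are 2 of these 3, so that count supports nothing. In LIF 1 was called higher and 2 lower, where 18.4% and 33.0% were.

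**Figure D4:**
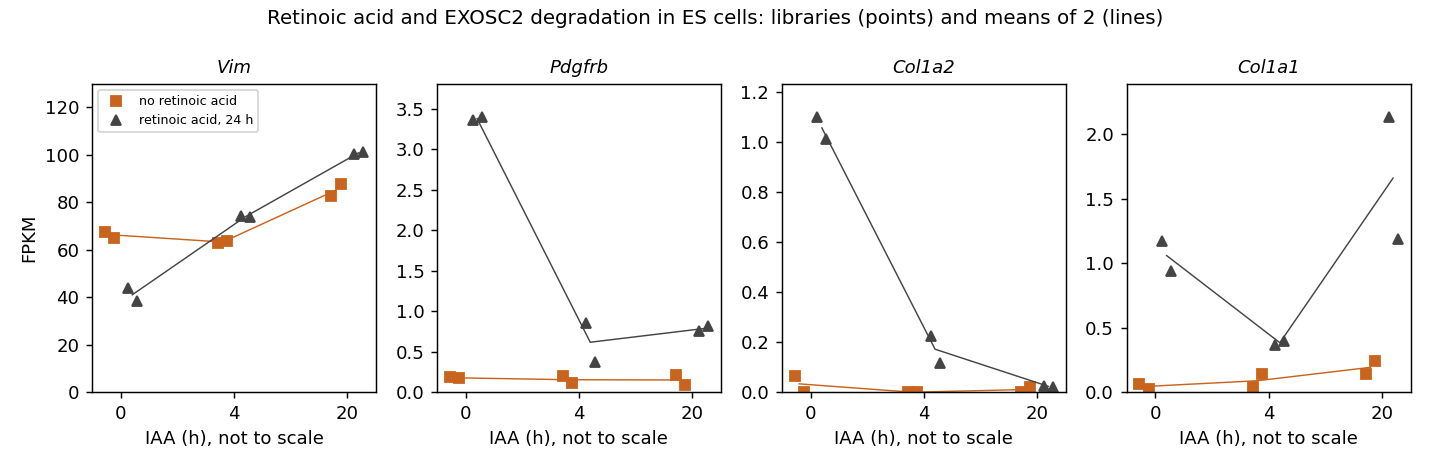
FPKM of Vim, Pdgfrb, Col1a2 and Col1a1 in ES cells in LIF (squares) and with retinoic acid for 24 h (triangles) at 0, 4 and 20 h of IAA, each point a library and lines joining means of 2. Vim with retinoic acid climbs from 43.7 and 38.4 to 100.4 and 101, whereas Pdgfrb and Col1a2 drop at 4 h and remain low.

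The difference between these 20 h changes was tested by an interaction term. It was called higher for Vim (0.93 ± 0.088, limma adjusted p = 0.000212), where 13.9% of all genes were. The terms of Pdgfrb (-1.26 ± 0.235) and Col1a2 (-0.98 ± 0.192) were negative and past the threshold, where 11.6% of genes were called lower. These 2 genes were near 0 in LIF at every time, so their terms restate the untreated values with retinoic acid through which they entered the test and support nothing. It shares the untreated retinoic acid libraries with the comparison of retinoic acid and LIF above. The Pdgfrb term was not called with a pseudocount of 0.1. Fn1 fell in both states, from 120 and 123 to 87.1 and 88.6 FPKM with retinoic acid (-0.46 ± 0.041, adjusted p = 2.08e-05) and from 104 and 106 to 80.5 and 85.2 in LIF (-0.34 ± 0.041, adjusted p = 0.000191), and the interval of the difference was -0.26 to 0.01. Thy1 in LIF, at 1.40 and 2.90 FPKM at 20 h against 4.09 and 3.17, was called lower at an adjusted p of 0.0469 that ended under every other scaling, filter, pseudocount and block tried.

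The matrix lists were also compared between retinoic acid and LIF without IAA, with the 2 genes of smallest p given for each. Genes below the minimum in LIF, such as Col2a1, Mmp9 and Twist2, entered only through libraries with higher values, so these counts are descriptions, to be read beside the 27.7% of all genes called higher and 19.0% called lower. Among the other collagens 5 of 6 tested genes were called higher and 0 lower, with Col18a1 at 50.2 FPKM in LIF and 113 with retinoic acid (1.15) and the cartilage collagen Col2a1 at 0.134 and 3.59 (2.02). Among collagen enzymes 10 of 20 were higher and 4 lower. The collagen chaperone Serpinh1 went from 15.1 to 74.9 FPKM (2.25) and the procollagen C-proteinase enhancer Pcolce from 69.3 to 7.62 (-3.03). Of the glycoproteins 7 of 15 were higher and 5 lower, with Fbln1 (fibulin) going from 7.67 to 41.4 FPKM (2.29) and the basement membrane linker Nid1 from 26.9 to 10.1 (-1.33).

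Of the matrix receptors 8 of 13 were called higher and 1 lower, with the laminin receptor Dag1 at 1.46 and the integrin chain Itgav at 1.69. Of the proteases and inhibitors 6 of 10 were higher and 2 lower, with Mmp9 at 2.41 and Timp1 at -1.16. The PDGF ligand Pdgfa fell from 19.3 to 1.80 FPKM (-2.87), opposite in direction to Pdgfrb, while Kit rose from 11.6 to 30.8 (1.33). In that list 5 of 11 were higher and 2 lower. The TGF-beta receptors Tgfbr1 (0.83) and Tgfbr3 (1.09) were among 9 of 13 called higher, and Twist2 (1.29) and Zeb2 (1.06) among 4 of 7 transcription factors. Of filaments and lamins 6 of 10 were higher, such as the keratin Krt18 (1.65), and 3 lower, such as Lmna (-2.07), which moved in the direction of Vim. The median change of all genes was 0.08.

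Levels of member RNA in subcellular fractions of ES cells could be followed for Fn1, Vim and Thy1. FPKM are relative to the RNA of each fraction and do not give amounts per cell. In untreated cells Fn1 was 45.1 and 50.2 FPKM in the chromatin fraction (chrRNP), 132 and 115 in the nucleoplasm and 18.3 and 10.7 in the cytosol. Vim was 7.19 and 15.5 FPKM in chromatin, 32.7 and 37.6 in the nucleoplasm and 47.8 and 42.2 in the cytosol. On this scale Fn1 was lowest in the cytosol, where Vim was highest. Both were higher in the nucleoplasm than in chromatin, a difference that was not tested. Chromatin against cytosol, Fn1 was called higher (1.69 ± 0.206, limma adjusted p = 1.87e-05), where 14.3% of 14069 genes were, and Vim lower (-1.98 ± 0.301, adjusted p = 9.14e-05), where 63.4% were. The median of all genes was -0.88, and after rescaling Fn1 stood at 3.18 and Vim at -0.54.

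With 4 h of IAA none of these 3 genes was called in the chromatin fraction, the nucleoplasm or the cytosol by limma, where 8.82%, 30.8% and 6.45% of genes were called and 3460, 6062 and 2338 had an unadjusted p under 0.05. In the whole-cell lysate Thy1 fell from 2.12 and 1.88 to 1.03 and 0.853 FPKM (-0.63 ± 0.135, limma adjusted p = 0.00965), where 13.5% of genes were called lower. That call ended after rescaling (-0.46, adjusted p = 0.0968). In the nucleoplasm Fn1 was 93.5 and 90.8 FPKM at 4 h, below both untreated libraries, yet did not pass the test (-0.42 ± 0.206, adjusted p = 0.146).

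In the RNPmesh, the polyadenylated RNA of the nuclear pellet left after extraction, Fn1 was among the most abundant of all transcripts, at 1260 and 897 FPKM, rank 5 of 21807 coding genes. At 4 h it was 1436 and 1447 FPKM and at 12 h 760 and 640, below both earlier times. The change at 12 h was -0.61 ± 0.288 (limma, adjusted p = 0.111). Of 4 tested members 0 were called at 12 h, where 48.0% of 12725 genes were and 7056 had an unadjusted p under 0.05. Without replicate 2 of 12 h 1 was called. Replicate 2 of 0 h stood apart, with a sum of all FPKM of 587804 against 226421 to 318002 in the other 5 libraries. Col1a1 was 0.857 and 1.19 FPKM in this pellet at 0 h, whereas Col1a2 and Col3a1 were listed at 0.

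Newly made RNA, labelled for 10 min with 5-ethynyluridine (EU) and given as RPKM (reads per gene length and sequencing depth), was detected for Fn1 and Vim. Fn1 was 8.62 and 9.39 RPKM at 0 h, 8.93 and 9.11 at 1 h, 8.49 and 8.59 at 2 h and 6.53 and 6.74 at 4 h. The 4 h libraries were below all others, but the change did not pass the test (-0.39 ± 0.099, limma adjusted p = 0.135). Vim was 1.35 and 1.09 at 0 h, 1.54 and 2.27 at 1 h, 2.05 and 1.91 at 2 h and 0.702 and 1.56 at 4 h, with overlap between 0 and 4 h. Of 2 tested members 0 were called at 4 h, where 1.90% of 8876 genes were and 1573 had an unadjusted p under 0.05. Taken times the gene span, 95% to 96.7% of the values of a library lay within 0.05 of whole multiples of a smallest step, which may be 1 read or 1 pair. Fn1 held 1617 to 3248 such steps and Vim 25 to 103. Col1a1, Col1a2, Col3a1, Pdgfra, Postn and Lum were at 0 in all 8 libraries. For Col1a1, 0 steps allow at most 0.0316 to 0.0666 RPKM (3 steps, counting error only).

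On sucrose gradients of nuclear lysate, the fractions F2 to F9 run as numbered in the labels, and a mean fraction number weighted by FPKM was computed for members with a summed value of at least 5 at both times. In untreated cells Fn1 had its highest value in F3, at 357 FPKM, Vim in F3 at 47.8 and Thy1 in F4 at 9.25. The mean fraction was 4.57 for Fn1, 3.90 for Vim and 3.96 for Thy1, against a median of 4.98 over 13056 genes. FPKM are relative to each library, and their sum fell from 753233 in F2 to 131766 in F9. The mean fraction therefore does not give where most of the RNA lay. With fractions scaled to equal totals it was 5.76, 4.69 and 4.76. No median over all genes was computed on that scale. Fractions F7 to F9 held 19.4% of the Fn1 sum, 6.95% of the Vim sum and 7.10% of the Thy1 sum.

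After 12 h of IAA the mean fraction was 4.88 for Fn1, 4.52 for Vim and 4.57 for Thy1. Each had moved to higher fraction numbers, by 0.31, 0.62 and 0.61. The median gene moved by 0.44, and 93.1% of genes moved up. With 1 library a fraction there is no replicate check and no test.

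**Figure D5:**
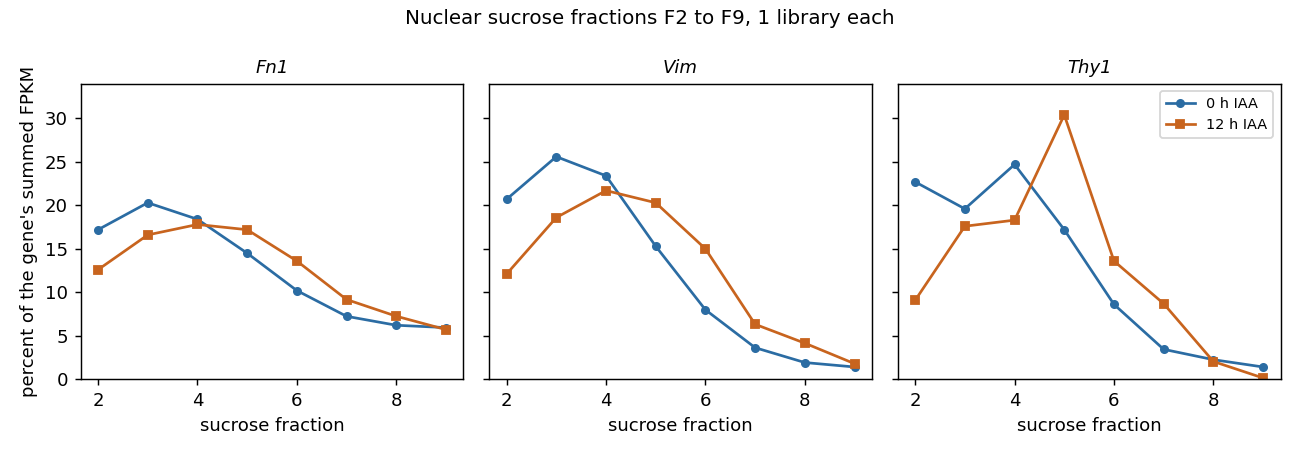
Share of each gene's summed FPKM in sucrose fractions F2 to F9 of ES cell nuclear lysate at 0 h (circles) and 12 h (squares) of IAA, 1 library per point. The Vim curve moves from a top at F3 to a top at F4, and Fn1 keeps a larger share in F7 to F9 than Vim at both times.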

How the data were processed

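RNA was measured in mouse cells in the groups described above, and 70 of 139 labelled libraries were used. The authors deposited FPKM in 6 tables and RPKM in the nascent table. The submitters' processing notes name TopHat2 2.0.11, Cufflinks 2.0.2, bedtools, Trim Galore (nascent RNA) and the builds mm10 and dm6. For peaks they name Bowtie2 2.2.6 and MACS2, and only positions were used. For spike-in scaling, strand and annotation version nothing is stated in the sources used. Reads may be shared between Col1a2 and Gm43921, Fn1 and Apol7d, and Pdgfra and Gm42802 or Gm42803, which overlap.

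Values were taken as log2(value + 1), a pseudocount of 1, after a minimum of 1 in 2 or more libraries. For each table limma 3.58.1 (trend; R 4.3.3, package data.table, version 1.17.8) fitted every group at once, with 16 contrasts in all and Benjamini-Hochberg adjustment per contrast. The fit was checked on simulated data. Python 3.11.15, pandas 2.3.3, numpy 2.4.6 and matplotlib 3.10.9 served for the rest. In rescaling, a library's values were divided by its median ratio to the gene means. Peaks counted from 1 bp of overlap.

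The alternatives tried were rescaling, a smaller pseudocount (0.1), leaving the minimum out, a block by replicate number, dropping single libraries, flanks of 1 and 50 kb, a lower minimum sum over sucrose fractions and fractions scaled to equal totals. The members and lists were chosen with earlier results of these data known. Named are the members and, of each list, the 3 genes of smallest p in iMEFs at 20 h and the 2 of smallest p for retinoic acid, of which 1 gene is not reported here. Foxc2 and Tubb3 were not matched by symbol. Chromatin contact and other histone and polymerase data were left out, since they bear on other questions.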

Additional observations from a re-analysis of the deposited data

Results flagged for a closer look

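In ES cells the change at 20 h of IAA differed between cells with retinoic acid and cells in LIF for 3 of 6 tested members, by the interaction term of the limma model, in which 13.9% of all genes were called higher and 11.6% lower. The difference was 0.93 for Vim, -1.26 for Pdgfrb and -0.98 for Col1a2, each on the log2 scale of FPKM + 1. Pdgfrb and Col1a2 entered the test only through the untreated libraries with retinoic acid, and in LIF were at most 0.219 and 0.067 FPKM, so their terms support nothing. The Pdgfrb term was also not called with a pseudocount of 0.1.

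Vim was called higher at 20 h in ES cells and not called in iMEFs. Every 20 h library lay above both untreated ones in ES cells (0.58 in total RNA, 0.35 in LIF and 1.28 with retinoic acid) and below both in iMEFs (-0.33, limma adjusted p = 0.0988, and -0.09 after rescaling, adjusted p = 0.274). The difference between iMEFs and ES cells was not tested, because the tables were normalized separately.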

How the results depend on the processing

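Each comparison was refitted with a pseudocount of 0.1, without the minimum, with rescaled libraries, with the replicate number as a block and without each library in turn. Of the counts of called members, those of 20 against 4 h in iMEFs went from 3 to 0 without the minimum and to 1 with the replicate block, that of chromatin at 4 h from 0 to 1 and that of whole-cell lysate from 1 to 0 after rescaling. Rescaling turned the sign of uncalled changes, in iMEFs at 4 h to 0.015 for Col1a2, 0.034 for Col3a1 and 0.039 for Pdgfra, and at 20 h to 0.204 for Col1a1 and 0.078 for Fn1. With a flank of 50 kb 6 members had an H3K27ac peak at 0 h and 8 at 4 h, where 67.6% and 71.8% of coding genes had one. A minimum sum of 1 let 6 members into the sucrose comparison. With fractions scaled to equal totals the shifts were 0.22 for Fn1, 0.35 for Thy1 and 0.62 for Vim. The shift over all genes was not computed on that scale. The cause of these differences was not tested.

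Without each library in turn, called members ranged from 2 to 8 in iMEFs at 20 h, from 0 to 4 for 20 against 4 h, from 0 to 1 in ES cells at 4 h, from 2 to 5 with retinoic acid at 20 h, from 1 to 3 for the interaction term, and from 0 to 1 in chromatin, in whole-cell lysate and in the RNPmesh. The count was 0 for 20 against 4 h without either 4 h library or replicate 2 of 20 h, and 1 without either 0 h library. With retinoic acid it was 2, and 1 for the interaction, without either untreated retinoic acid library, since Pdgfrb and Col1a2 then could not be fitted. It was 1 in ES cells at 4 h without replicate 2 of 4 h, 1 in the RNPmesh without replicate 2 of 12 h, 1 in chromatin without replicate 2 of 0 h, and 0 in whole-cell lysate without replicate 1 of 0 h or replicate 2 of 4 h. The 20 h change of Col1a1 in iMEFs ranged from -0.127 to 0.06, and the 4 h change of Lum from -0.076 to 0.128. A lone library is assumed to vary like the other groups.

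Counts over all genes depended more on the settings. Without the minimum 100 genes were called in iMEFs at 4 h (212 with it), 2134 at 20 h (3557), 473 for 20 against 4 h (1017), 171 in ES cells at 4 h (3196) and 79 in nascent RNA (169). After rescaling the numbers were 379 in iMEFs at 4 h, 2365 for 20 against 4 h, 994 in ES cells at 4 h, 2373 in chromatin (1241), 2016 in the nucleoplasm (4333) and 1432 in whole-cell lysate (2707). Without each library in turn the counts ranged from 129 to 197 in iMEFs at 4 h, from 1244 to 4844 at 20 h, from 365 to 1246 for 20 against 4 h, from 180 to 5114 in ES cells at 4 h, from 565 to 5550 in chromatin, from 2063 to 6001 in the nucleoplasm, from 470 to 1153 in the cytosol (907 with all libraries), from 1134 to 4211 in whole-cell lysate and from 3 to 20 in nascent RNA. Rescaling also moved the split of higher and lower calls, from 274 and 743 to 1069 and 1296 for 20 against 4 h in iMEFs, from 557 and 2639 to 745 and 249 in ES cells at 4 h, from 2842 and 5081 to 3927 and 3528 in LIF at 20 h, from 1119 and 122 to 1374 and 999 in chromatin, from 1046 and 3287 to 1288 and 728 in the nucleoplasm, from 709 and 198 to 589 and 277 in the cytosol, from 808 and 1899 to 985 and 447 in whole-cell lysate, from 2014 and 8913 to 5514 and 4280 for chromatin against cytosol and from 2078 and 4024 to 3172 and 2938 in the RNPmesh.

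The labels give replicates the same numbers across groups, but the deviations of same-numbered libraries correlated between -0.14 and 0.15 over all tables, so the numbers were not taken to pair the samples. With the replicate block 1170 genes were called in ES cells at 4 h and 2 in nascent RNA. Depth is not known for the FPKM tables, so no lower limit can be given for genes listed at 0 there.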
